A study of Mus musculus with 8 samples.

Results

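Jumonji histone demethylases are enzymes that remove methyl groups from lysines of histone tails. The 10 genes described here are Kdm2a, Kdm2b, Kdm3a, Kdm3b, Kdm4a, Kdm4b, Kdm4c, Kdm5a, Kdm5b and Kdm6b, chosen by their gene symbol among the 23141 genes of the count table, and all 10 were found. mRNA levels of RAW264.7 cells, a virus-transformed mouse macrophage line, had been measured by RNASeq in 8 cultures, 1 untreated (0 min) and 7 given 100 ng/ml LPS, and taken every 15 min from 15 to 90 min and at 120 min. LPS, a component of the outer membrane of many bacteria, is sensed by the receptor TLR4. No other treatment or genetic change is given for any of the 8 libraries. With 1 library per time point, none of the differences below could be checked in replicates, and all tests compare pairs of libraries, not conditions.

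Jumonji demethylases oxidize the methyl group with iron, oxygen and 2-oxoglutarate, and the JmjC domain that does so holds the iron with a histidine, an aspartate or glutamate next but one to it, and a further histidine. The subfamilies differ in the lysine of histone H3 they act on: KDM6 enzymes remove the repressive methylation of K27, KDM5 enzymes the promoter mark at K4, KDM3 enzymes methylation of K9, KDM4 enzymes trimethylation of K9 and K36, and KDM2 enzymes dimethylation of K36. In macrophages, Kdm6b, also known as Jmjd3, is known as a target gene of inflammatory signaling.

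Since the paralogs are related in sequence, the coding stretch of 58 bases (the read length) around the iron-binding histidine is shown to see whether reads could be told apart in this conserved part of the genes. Capitals mark the codons from the iron-binding histidine to the aspartate or glutamate next but one to it. The stretches were read 5′ to 3′ from GENCODE transcripts of GRCm38, and Kdm6a, the other KDM6 enzyme, is added for comparison.
Kdm6b: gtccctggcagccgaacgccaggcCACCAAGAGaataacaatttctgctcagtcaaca
Kdm6a: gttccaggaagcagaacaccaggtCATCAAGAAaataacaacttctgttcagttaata
Kdm5a: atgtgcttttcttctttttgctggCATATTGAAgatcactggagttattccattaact
Kdm5b: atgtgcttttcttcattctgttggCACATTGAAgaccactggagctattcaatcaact
Kdm4a: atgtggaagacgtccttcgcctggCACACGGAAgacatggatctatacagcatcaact
Kdm4b: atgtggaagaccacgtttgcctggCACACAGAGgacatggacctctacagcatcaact
Kdm4c: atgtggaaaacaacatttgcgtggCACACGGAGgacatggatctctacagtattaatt
Kdm3a: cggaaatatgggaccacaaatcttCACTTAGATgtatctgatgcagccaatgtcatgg
Kdm2a: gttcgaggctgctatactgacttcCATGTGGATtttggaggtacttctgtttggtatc
Kdm2b: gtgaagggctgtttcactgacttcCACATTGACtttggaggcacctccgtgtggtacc

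All of these stretches lie in coding exons. The Kdm6b stretch spans exons 17 and 18 of 23 on the minus strand (chr11:69401342-69401536, with the intron between them) and holds the codon of histidine 1388. The Kdm5a stretch is in exon 11 of 28 (chr6:120390768-120390825, plus strand, histidine 483), and that of Kdm5b in exon 11 of 27 (chr1:134604556-134604613, plus strand, histidine 499). Those of the KDM4 genes are each in exon 5, of Kdm4a (chr4:118168413-118168470, minus strand), Kdm4b (chr17:56355971-56356028, plus strand) and Kdm4c (chr4:74298549-74298606, plus strand). The Kdm3a stretch is in exon 23 of 27 (chr6:71592115-71592172, minus strand). The Kdm2a stretch is in exon 8 of 21 (chr19:4351757-4351814, minus strand) and that of Kdm2b in exon 7 of 23 (chr5:122949090-122949147, minus strand). Kdm6b differed from Kdm6a at 12 of the 58 bases. Kdm4a differed from Kdm4b at 8 and from Kdm4c at 11, Kdm4b and Kdm4c differed at 9, Kdm5a and Kdm5b at 8, Kdm3a and Kdm3b at 15, and Kdm2a and Kdm2b at 16 bases. The authors allowed 2 mismatches in mapping, fewer than any of these differences. None of the stretches of 58 bases of the 10 genes' transcripts was found exactly, in the same orientation, in a transcript matched to another gene of the count table. Mismatches were counted only between the paralogs above.

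Kdm6b was the only one of the 10 genes that was called different from 0 min. It was higher in the 6 libraries from 30 to 120 min and reached 36.2 times its 0 min level at 120 min. The other 9 genes were called at no time point against 0 min, with log2 ratios between -0.64 (Kdm2b, 120 min) and 0.78 (Kdm5b, 30 min). A difference was called when the log2 ratio of normalized counts was beyond 0.5 and the unadjusted p-value of the exact negative binomial test of the 2 libraries was below 0.05. Of the 16965 genes with a count, the share called higher was 0.265%, 1.04%, 3.42% and 3.14% in the libraries from 15 to 60 min, and 4.3%, 5.24% and 7.05% in those from 75 to 120 min. The share called lower was 0.147%, 0.183%, 1.36% and 2.15% up to 60 min, and 3.13%, 4% and 6.19% from there on. In at least 1 of the 7 LPS libraries, 8.97% of the genes with a count were called higher and 8.16% lower. The 1 of 10 genes called higher is near the first of these shares. At the mean counts of the 10 genes a log2 ratio of about 0.69 was needed for a call, except for the low Kdm5b, where 1.52 was needed. Smaller differences were thus not detectable by this rule.

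**Figure D1:**
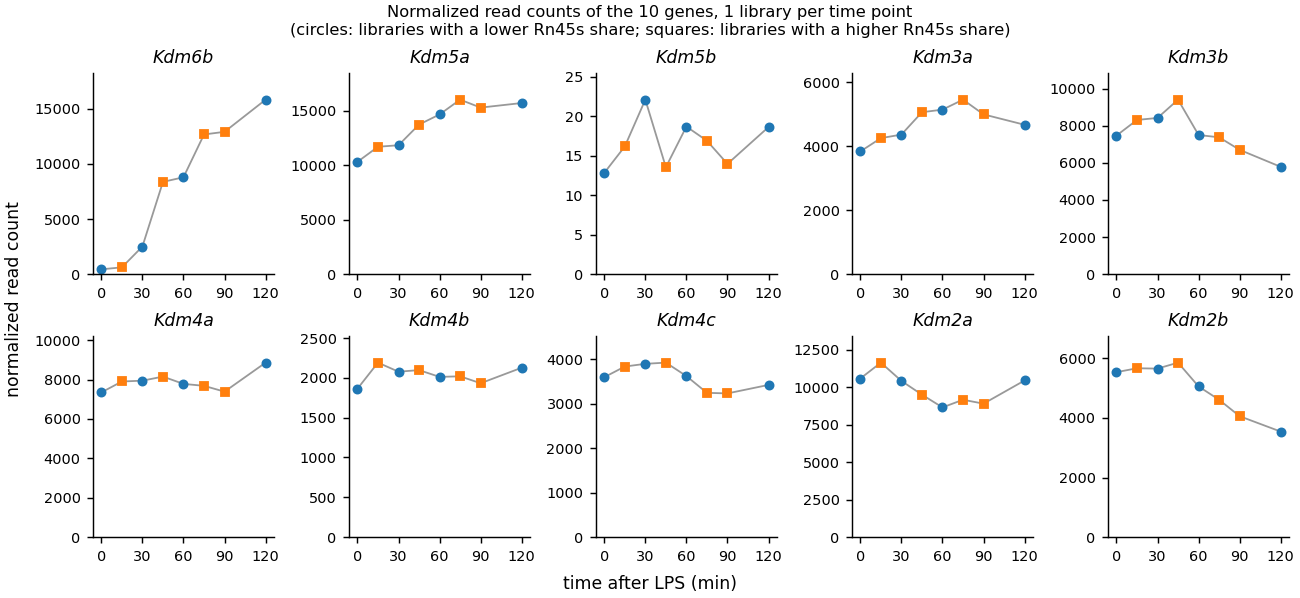
Normalized read counts (y axis, separate scale for each gene, starting at 0) of the 10 genes against time after LPS in min (x axis), with 1 point per library. Kdm6b goes from 438 at 0 min to 15840 at 120 min, whereas the highest value of each other gene lies less than 1 log2 unit above its lowest.

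The libraries held 100229997 (75 min) to 159036125 (120 min) reads counted on genes. The ribosomal RNA precursor Rn45s took 8.18% to 9.11% of the counts at 0, 30, 60 and 120 min, and 13% to 20.5% at 15, 45, 75 and 90 min, so that the libraries form 2 sets of 4. Ratios were therefore also taken within each set, as 120 against 0 min and 90 against 15 min, where the times and the reference differ. Tnf and Nfkbia, known LPS targets, were higher in all 7 LPS libraries, and Il1b was higher from 30 min on. The 8 macrophage markers examined, among them Csf1r, Cd68 and Adgre1, were not called different from 0 min in any library. However, Spi1, at 1.57 times its 0 min level at 120 min, was called higher there once each library's trend with transcript length was removed. Of the 8 markers, 7 had a mean normalized count of at least 100. None of the 15 markers of T cells, B cells, epithelial cells, fibroblasts and endothelial cells reached that mean. In such bulk RNA, fewer cells with a transcript and less of it per cell cannot be told apart.

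Kdm6b encodes the H3K27 demethylase JMJD3. Without LPS its normalized count was 438. It was 617, 2509 and 8375 in the libraries from 15 to 45 min, and 8795, 12680, 12920 and 15840 in those from 60 to 120 min, from 512 to 19539 reads. In these normalized counts, every LPS library was above the 0 min library, and each was above the one before. The ratio to 0 min was 1.41 at 15 min (exact binomial 95% interval 1.25 to 1.58, as all intervals of ratios covering counting error only), a difference that was not called (exact p = 0.172). It was 5.73 at 30 min (5.21 to 6.3, exact p = 1.51e-11), and then 19.1, 20.1, 28.9 and 29.5 up to 90 min. At 120 min the ratio was 36.2 (33.1 to 39.5, exact p = 3.19e-35).

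On the log2 scale, most of the rise fell between 15 and 45 min. Between neighbouring time points, the Kdm6b level at 30 min was 4.07 times that at 15 min, where 0.796% of genes were called higher, and at 45 min 3.34 times that at 30 min, where 1.02% were. The later steps were 1.05 (45 to 60 min), 1.44 (60 to 75 min), 1.02 (75 to 90 min) and 1.23 (90 to 120 min). None of these was called, and the step from 75 to 90 min was within counting error (0.991 to 1.05). Over longer spans the level still rose, 1.89-fold from 45 to 120 min and 1.8-fold from 60 to 120 min (4.25% and 3.34% of genes called higher). In all, 19 of the 28 pairs of libraries were called for Kdm6b, with the later library higher in each. Its maximum at 120 min, the last time point, placed it in g1, the group of genes with a first maximum at or after 60 min, which held 7.28% of the genes with a count. Within the 2 sets of libraries, the ratio was 36.2 for 120 against 0 min, and 21 (19.4 to 22.7) for 90 against 15 min. 127 of the 58-base stretches of the annotated antisense transcript Kdm6bos lie reversed in the Kdm6b transcript, against 6597 unique stretches of Kdm6b itself, and whether the counting used strand is not given in the sources used here.

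**Figure D2:**
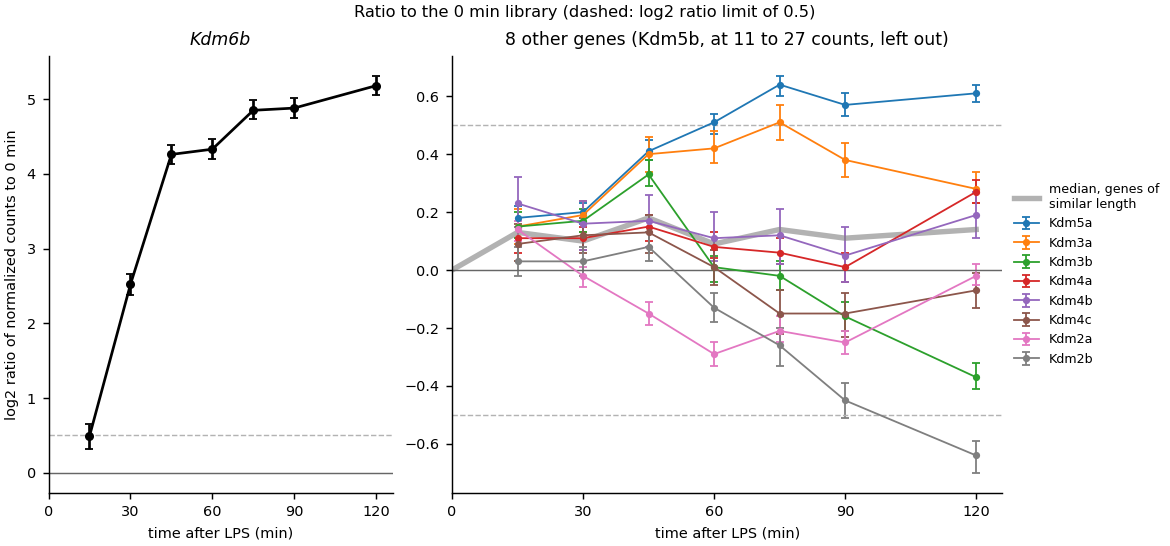
Log2 ratio of normalized counts to the 0 min library (y axis) against time after LPS in min (x axis) for Kdm6b (left) and 8 other genes (right, different scale). Bars are 95% counting intervals, dashed lines the log2 ratio limit of 0.5, and the thick grey line the median of 2846 genes with transcripts of similar length. Kdm6b passes the limit from 30 min on, Kdm5a lies above it from 60 min, Kdm3a at 75 min (0.51) and Kdm2b below it at 120 min, none of these called.

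KDM5 enzymes remove methylation from H3K4. Kdm5a had a normalized count of 10320 without LPS, of 11710, 11850 and 13750 from 15 to 45 min, and of 14680, 16040, 15310 and 15730 from 60 to 120 min. All LPS libraries were above the 0 min library, and those from 60 min on were the highest. The ratio was 1.55 at 75 min (1.52 to 1.59, exact p = 0.0767) and 1.52 at 120 min (1.49 to 1.56, exact p = 0.0817). These differences were far beyond counting error but were not called. The call was made at 75 and 120 min when the test was limited to genes with a mean of at least 10 normalized counts, and at 75 min without the 120 min library. Within the 2 sets the ratios were 1.52 (120 against 0 min) and 1.31 (90 against 15 min). Kdm5a has the longest transcript of the 10 genes, and with each library's trend with transcript length removed, its log2 ratio at 120 min was 0.22 instead of 0.61.

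Kdm5b, its paralog, was close to the limit of detection. Its read counts were 15, 17, 27, 12, 21, 12, 11 and 23 in the order of the time points. The highest ratio to 0 min was 1.72 at 30 min, with an interval of 0.884 to 3.48 that includes 1. At 120 min it was 1.45 (0.726 to 2.99). No difference of Kdm5b was called in any of the 28 pairs of libraries, and at this depth only large ones could have been.

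KDM3 enzymes act on H3K9. Kdm3a had 3833 normalized counts without LPS, 4249, 4360 and 5059 from 15 to 45 min, and 5139, 5451, 4991 and 4666 from 60 to 120 min. It was lowest at 0 min and highest at 75 min, where the ratio was 1.42 (1.36 to 1.48, exact p = 0.159, not called). Kdm3b had 7469 normalized counts without LPS, 8316, 8423 and 9410 from 15 to 45 min, and 7504, 7379, 6705 and 5787 after that. Its highest level was thus at 45 min and its lowest at 120 min, with ratios to 0 min of 1.26 (1.22 to 1.3) and 0.775 (0.751 to 0.8).

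Although neither was called against 0 min, Kdm3b and Kdm2b were each called lower at 120 than at 45 min, the only one of the 28 pairs of libraries called for either. Kdm3b at 120 min was 0.615 times its 45 min level (0.596 to 0.635, exact p = 0.0481), and Kdm2b 0.605 times (0.581 to 0.63, exact p = 0.0414). In this pair, 5.58% of genes were called lower. The 45 min library belongs to the set with a high share of Rn45s and the 120 min library to the other, and the part of this in the result was not tested. Both calls lie close to the limit. Neither was made with Benjamini-Hochberg adjustment, with a log2 ratio limit of 1, with total counts, with the length trend removed or without the 30 min library, and that of Kdm3b was also lost without the 60 or the 75 min library. The log2 ratios of Kdm2b and Kdm3b, -0.73 and -0.70, were -0.74 and -0.72 with total counts. With the length trend removed they were -0.68 and -0.65. They moved further with total counts without Rn45s, to -0.87 and -0.84. With the rows without an accession as the scale they were -0.90 and -0.87. Both calls were kept with total counts without Rn45s and with the rows without an accession as the scale.

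KDM4 enzymes demethylate H3K9 and H3K36, and their levels varied least. Kdm4a had 7345, 7900, 7942, 8148, 7778, 7680, 7384 and 8858 normalized counts from 0 to 120 min, with the highest value at 120 min (ratio 1.21, interval 1.17 to 1.24). Kdm4b had 1863, 2191, 2077, 2097, 2012, 2019, 1932 and 2127, and was lowest at 0 min and highest at 15 min (ratio 1.18, interval 1.11 to 1.25). Kdm4c had 3594, 3834, 3895, 3922, 3620, 3243, 3230 and 3421, and was highest at 45 min and lowest at 90 min (ratio 0.899, interval 0.855 to 0.944). None of the KDM4 genes was called in any of the 28 pairs of libraries. At 120 min Kdm4b was above 0 min with the main scale, at a log2 ratio of 0.19, but at -0.01 with total counts.

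KDM2 enzymes act on H3K36, and KDM2B also brings a Polycomb complex to unmethylated CpG islands. Kdm2a had 10580 normalized counts without LPS, 11640, 10420 and 9501 from 15 to 45 min, and 8653, 9163, 8902 and 10450 from 60 to 120 min. Its lowest level at 60 min was 0.818 times that at 0 min (0.797 to 0.84), and by 120 min it was 0.988 times (0.964 to 1.01), with no call in any pair. Kdm2b had 5538, 5670, 5658, 5859, 5059, 4612, 4060 and 3543 from 0 to 120 min. After its highest level at 45 min, each library was below the one before. At 120 min Kdm2b was at 0.64 times its 0 min level (0.616 to 0.665), the largest difference below 0 min among the 10 genes, and was not called (exact p = 0.0663).

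Kdm2b was called lower at 120 min under 4 of the alternative settings: total counts with and without Rn45s, the removed length trend, and genes with a mean of at least 10 alone. Its log2 ratio was then between -0.85 and -0.74 in the first 3 of these, instead of -0.64. Within the 2 sets of libraries its ratio was 0.64 for 120 against 0 min and 0.716 (0.686 to 0.748) for 90 against 15 min.

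**Figure D3:**
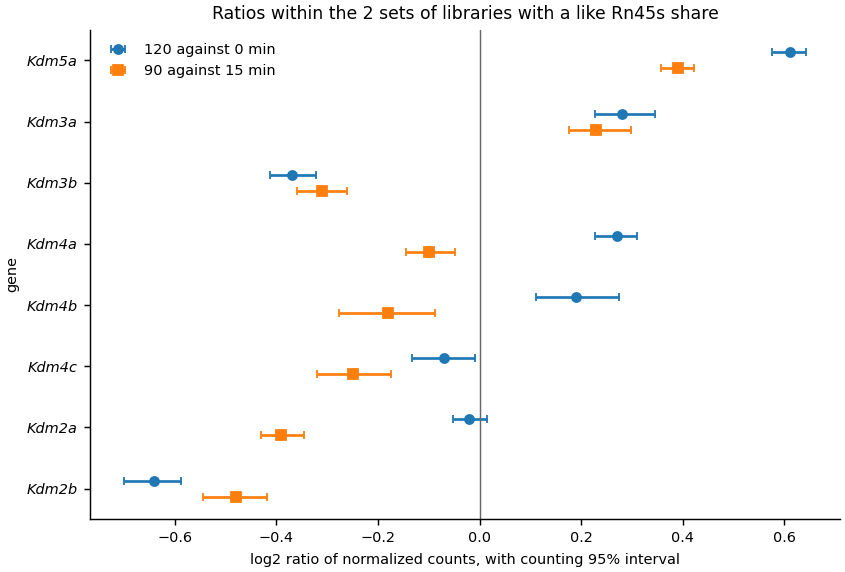
Log2 ratio of normalized counts (x axis) within the 2 sets of libraries, 120 against 0 min (circles) and 90 against 15 min (squares), for 8 genes (y axis), with 95% counting intervals. Kdm5a and Kdm3a lie above 0 and Kdm3b and Kdm2b below 0 in both sets, whereas Kdm4a and Kdm4b lie on different sides of 0.

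Direction did not depend on the set of libraries for Kdm6b, Kdm5a and Kdm3a, which were above the reference in both, or for Kdm2a, Kdm2b, Kdm3b and Kdm4c, which were below it. For Kdm5b both intervals included 1. Kdm2a at 120 against 0 min was within counting error, since its interval included 1. Kdm4a changed side, from 1.21 for 120 against 0 min to 0.935 for 90 against 15 min, as did Kdm4b, from 1.14 to 0.882. The scale of total counts lowered every log2 ratio by 0.20 at 120 min, and with it 5 instead of 6 of the 10 genes lay above 0. On that scale the log2 ratio of Kdm3a was only 0.08 for 120 against 0 min and 0.04 for 90 against 15 min. Those of Kdm5a were 0.41 and 0.19.

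The 9 genes other than Kdm6b had medians near those of long transcripts, except at 75 and 90 min, where their medians were lower. Their median log2 ratio was 0.15, 0.16 and 0.15 from 15 to 45 min, 0.08, 0.06 and 0.01 from 60 to 90 min, and 0.19 at 120 min. The median of all 10492 genes with a mean of 100 or more normalized counts stayed between -0.01 and 0.02. However, the 2846 of them with transcripts as long as those of the 10 genes (4196 to 10944 bases) had medians of 0.13, 0.10 and 0.18 up to 45 min, 0.09, 0.14 and 0.11 from 60 to 90 min, and 0.14 at 120 min. All 10 genes were above 0 at 15 min, against 8 at 60 min and 6 in the last library. The part of transcript length in these values was not tested beyond the alternative that removes the trend.

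Levels were compared between the genes as rpkm, reads per kilobase of unique sequence, scaled by the total count of the library. At 0 min Kdm4a (13.3 rpkm, Poisson 95% interval 13 to 13.5) and Kdm2a (13.1, 12.9 to 13.4) were highest and did not differ beyond counting error. If instead the longest transcript annotated for each gene set the length, they did, at 14.1 and 11 rpkm. On the main measure they were followed by Kdm3b (10.6), Kdm2b (9.28), Kdm5a (8.46), Kdm4c (7.49), Kdm3a (7.03) and Kdm4b (3.68), none of which overlapped its neighbours. Kdm6b was at rank 9 with 0.592 rpkm (0.542 to 0.646) and Kdm5b last with 0.0132 rpkm (0.0074 to 0.0218).

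At 120 min Kdm6b was highest with 18.6 rpkm (18.4 to 18.9). Its share of the summed rpkm of the 10 genes was 0.805% without LPS, 1.04%, 4.14% and 12.1% from 15 to 45 min, and 13.4%, 18.1%, 19.3% and 22% from 60 to 120 min. It thereby moved from rank 9 up to 30 min to rank 4 at 45 min, rank 3 at 60 min and rank 1 from 75 min on. Ranks 4 and 3 were within counting error. At 45 min the interval of Kdm6b (9.73 to 10.2 rpkm) overlapped those of Kdm2a (10.1 to 10.6) and Kdm5a (9.73 to 10.1). At 60 min its interval (10.9 to 11.4) overlapped that of Kdm5a (11.1 to 11.4). Kdm4a followed at 120 min with 13.9 rpkm, then Kdm2a (11.3) and Kdm5a (11.2), whose intervals overlapped. Kdm2b was at 5.16 rpkm, below Kdm4c (6.2). The summed rpkm of the 10 genes was 73.5 at 0 min and 84.6 at 120 min.

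**Figure D4:**
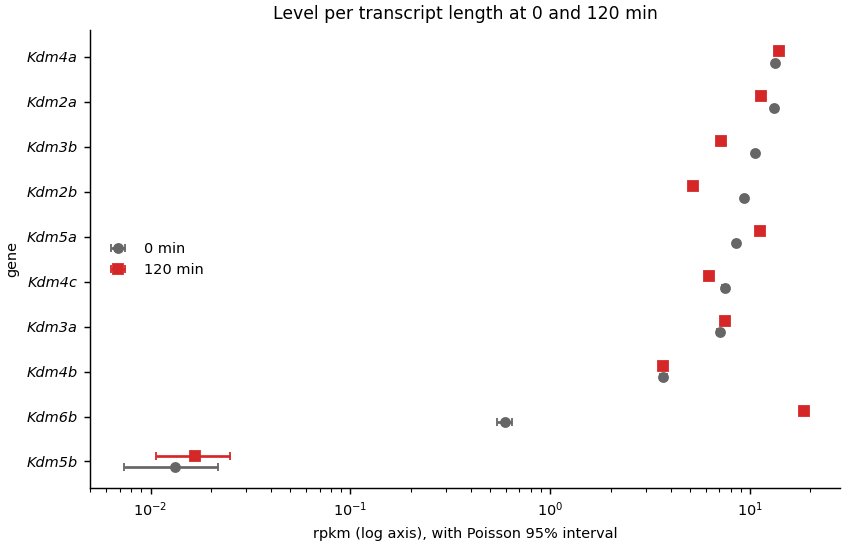
Level of each of the 10 genes (y axis) as rpkm (x axis, log scale) at 0 min (circles) and 120 min (squares), with Poisson 95% intervals that cover counting error only. Kdm6b goes from 0.592 to 18.6 rpkm, from rank 9 to rank 1, and Kdm5b stays lowest.

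The pattern most like that of Kdm6b was sought among the same 10492 genes by Pearson's correlation of log2 values over the 8 libraries, which share their scale and their Rn45s split. The 5 most alike were Cdkn1a (r = 0.999), which encodes the cell cycle inhibitor p21, Zc3h12a (0.9977), which encodes an RNase that degrades cytokine mRNAs, Nlrp3 (0.9965), an inflammasome sensor, Mir22hg (0.9959), a microRNA host transcript, and Mcl1 (0.9954), an inhibitor of apoptosis. All 5 were in g1, with smaller log2 ratios at 120 min than the 5.18 of Kdm6b: 2.38 for Cdkn1a, 3.69 for Zc3h12a, 3.87 for Nlrp3, 2.42 for Mir22hg and 1.73 for Mcl1. For Kdm5b, which had the next largest log2 range (0.78), the most alike genes were Lamb2 (r = 0.9183), 4930526I15Rik (0.8772), Hook2 (0.858), Gm3435 (0.8254) and Sec23a (0.82), values that rest on 11 to 27 reads of Kdm5b per library.

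Other genes with a JmjC domain were called in both directions. Of 21 such genes, 3 were called higher and 1 lower at 120 min, against 7.05% and 6.19% of all genes with a count. In at least 1 LPS library, 4 of the 21 were called higher and 2 lower, against 8.97% and 8.16%. The median log2 ratio at 120 min of the 19 with a mean of at least 100 was 0.19. Jmjd1c, of the same subfamily as Kdm3a, was higher from 60 min on and had the largest ratio at 120 min, 2.56. Jarid2, a member of Polycomb repressive complex PRC2 without demethylase activity, rose 2.26 times, and Hif1an, the asparagine hydroxylase that inhibits HIF, 1.64 times, a call made only with the main scale. Jmjd7, a hydroxylase, fell to 0.381 times its 0 min level. Kdm6a, the X-linked paralog of Kdm6b, was called higher at 90 min only and had a ratio of 1.53 at 120 min, where it was not called. Per length, Kdm6a was at 3.8 rpkm at 0 min and 5.04 rpkm at 120 min, above Kdm6b at the first and below it at the last time point. Kdm5c, the paralog of Kdm5b on the X chromosome, was at 17.1 and 19.7 rpkm, and was not called.

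The flavin-dependent demethylases remove methyl groups by another mechanism. Of Kdm1a, Kdm1b and 5 partner genes, none was called higher and 2 were called lower at 120 min. Of all genes with a count, 7.05% were called higher and 6.19% lower. The 2 genes called lower encode corepressors of the CoREST type, Rcor2 (0.563 times) and Rcor3 (0.515 times). Rcor1, of the same type, was at 1.17 times its 0 min level and not called. Kdm1a, which encodes the H3K4 demethylase LSD1, was at 1.25 times its 0 min level and not called.

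Among the methyltransferases that write the marks, calls at 120 min went in both directions. Of all genes with a count, 7.05% were called higher and 6.19% lower at that time. For H3K4, 7 of 8 listed genes were found, and 2 of them rose, Kmt2b (2.39 times) and Kmt2d (2.31 times), with a list median log2 ratio of 0.47. The lowest was Setd7, at 0.851 times its 0 min level and not called. For H3K9, 1 of 7 was called, Ehmt1, which encodes the methyltransferase GLP and fell to 0.519 times, and the highest, Prdm2 at 1.53 times, was called at 75 min but not at 120 min. For H3K27, neither Ezh2 (1.18 times) nor Ezh1 (0.843 times), the catalytic subunits of PRC2 and the writers of the mark that KDM6B removes, was called. For H3K36, 1 of 6 rose, Ash1l (1.67 times), a call kept only with the main scale and TMM factors, and the lowest was Nsd2 (0.881 times, not called). Dot1l, the H3K79 methyltransferase, rose 2.85 times.

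Polycomb genes, whose products write and read H3K27 methylation, went in both directions. Of 26 genes, 4 were called higher and 5 lower at 120 min, against 7.05% and 6.19% of all genes with a count. The median log2 ratio of the list was 0.05. The largest fall was that of Cbx8, which encodes a subunit that binds the methylated lysine, to 0.0931 times its 0 min level, a call made with each scale that was tried. The 4 that rose were Bcorl1 (2.64 times), Jarid2 (2.26), Rybp (1.71) and Pcgf3 (1.62), of which Bcorl1 and Jarid2 were called with each scale.

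Genes of cofactor supply and oxygen sensing, and the TET enzymes that use the same cofactors, had a median log2 ratio of 0.02 at 120 min. Of 12 genes, 2 rose, Tet2 (6.37 times), a dioxygenase that oxidizes methylated cytosine, and Hif1a (1.73 times), the hypoxia-inducible factor, and none was called lower. The Hif1a call was lost with total counts, with or without Rn45s, and with the rows without an accession as the scale. The lowest was Egln1, the main HIF prolyl hydroxylase, at 0.695 times its 0 min level and not called. Idh1 (0.74 times) and Idh2 (0.863 times), which make 2-oxoglutarate, were not called. Beside these counts stand the 7.05% of all genes called higher and the 6.19% called lower at 120 min.

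**Figure D5:**
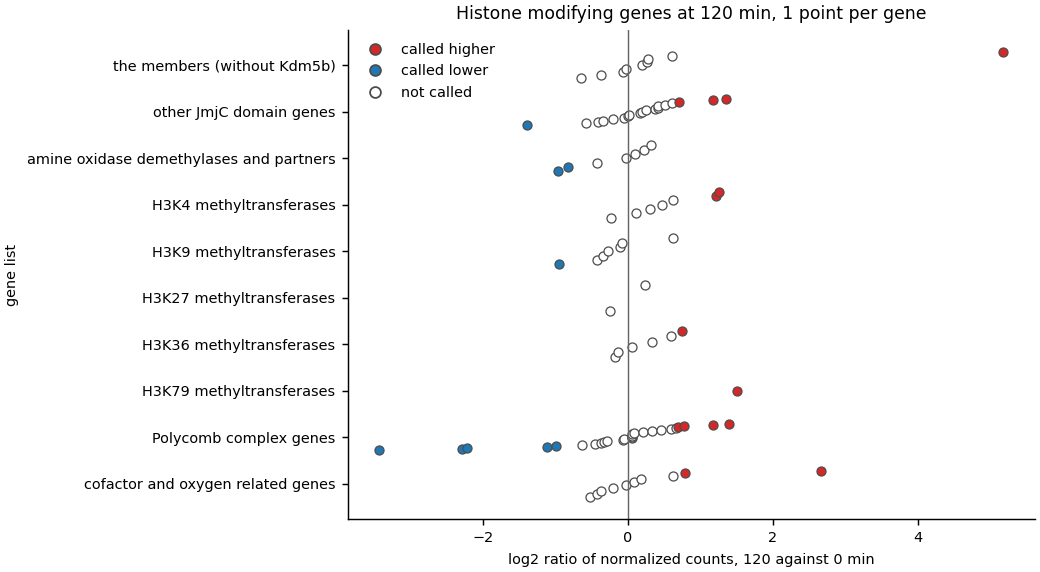
Log2 ratio of normalized counts at 120 against 0 min (x axis) for the genes of each list (y axis) with a mean of 100 or more normalized counts, 1 point per gene, filled where called. Kdm6b lies at 5.18, above every other gene shown, followed by Tet2 at 2.67, and the lowest point, among the Polycomb genes, is Cbx8 at -3.43.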

How the data were processed

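Read counts per gene symbol, the only values used, were deposited by the authors without normalization as 1 table with 1 column per library. According to the methods, ribosomal RNA was removed with Ribo-Zero, Bowtie placed the 58-base reads on the RefSeq transcripts of mm10, allowing 2 mismatches, and reads that fitted several gene symbols were dropped. The labels name CASAVA 1.8.2, DESeq 1.10.1 and mm10 (GRCm38), and give the RNA fraction as cytoplasmic, where the paper's text describes total RNA. The 2 rows without an accession, presumably in vitro transcripts, took 208 to 316 cpm and were left out.

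After the authors' DESeq settings, median-of-ratios size factors (0.71 to 1.23), a blind parametric dispersion over the 8 libraries (0.0287 plus 0.853 divided by the mean) and an exact negative binomial test of each of the 28 pairs were computed in Python 3.11.15 (with numba 0.67.0, scipy 1.17.1, numpy 2.4.6 and pandas 2.3.3), and tested on simulated data. With 1 library per time point, no residual degrees of freedom were left for edgeR's quasi-likelihood test. For rpkm, unique 58-mers were counted in GENCODE vM21 transcripts matched by RefSeq accession. All intervals cover counting error only. Total counts of 100229997 to 159036125 per library set this precision.

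The genes, the lists of related genes and the alternatives (edgeR 4.0.16 TMM factors and DESeq2 1.42.0 in R 4.3.3 among them) were chosen with earlier results of these data known. All 10 genes are named, with, per list, its counts and the genes with the largest rise and fall at 120 min, and the 5 genes most alike to the 2 genes with the widest log2 range. Other named list genes were chosen after their values were seen. The other data of the study were not analysed here.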

Additional observations from a re-analysis of the deposited data

How the results depend on the processing

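Under every alternative run, Kdm6b was in g1 and, where the 0 min library was kept, was called higher in each library kept from 30 min on. Its log2 ratio at 120 min (5.18) was 4.97 with total counts, 4.98 with total counts without Rn45s and 4.99 with the length trend removed, and at 60 min it was 4.03 instead of 4.33 on the scale of the rows without an accession, an alternative chosen after seeing the data. The number of genes called lower against 0 min was 1 (Kdm2b) instead of 0, and the number in g2 likewise 1, with total counts, total counts without Rn45s, the length trend removed and genes with a mean of at least 10. With the latter (for the groups also chosen after seeing the data), 2 genes (Kdm5a and Kdm6b) instead of 1 were called higher and 2 were in g1. With 1 library left out, 1 to 2 genes were called higher and 1 to 2 were in g1 (Kdm5a added without the 120 min library), none was called lower, and 0 to 1 were in g2 (Kdm2b without the 0 min library, which leaves no ratio to 0 min). Why Kdm2b and Kdm5a cross the limit was otherwise not tested. No paired analysis was possible because each time point has 1 library. Without replicates, the rule leaves log2 ratios below about 0.69 undetected, and scale (up to 0.33 at 75 min with total counts) and transcript length move ratios of this size.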

Other observations

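Chosen after their values were seen, the genes most alike to Kdm5a and Kdm2b were looked up in the same way as for Kdm6b. The pattern most like that of Kdm5a was that of Chd1 (r = 0.9977 over 8 libraries), which encodes a chromatin remodeler that binds methylated H3K4 and was at a log2 ratio of 0.79 at 120 min, in g1. Traf6, an adaptor of TLR signaling, followed (r = 0.997, log2 ratio 0.42, not in g1). The genes most alike to Kdm2b were Il17ra (r = 0.9969), a cytokine receptor, with a log2 ratio of -0.99, and Nek6 (r = 0.9961), a kinase, with -1.06, both in g2, the group of genes with a first minimum at or after 60 min. Among the JmjC genes, Riox1, a ribosomal oxygenase, was called lower at 45 and 60 min and was at 0.782 times its 0 min level at 120 min, where it was not called. Kdr, an endothelial marker with a mean normalized count of 17.3, was the only marker of another cell type called higher, at 30 and 120 min, and the call at 120 min was made only with the main scale and TMM factors.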
